A study of Arabidopsis thaliana with 12 samples.

Results

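The pft1-1 mutant of Arabidopsis thaliana was compared with itself at 2 growth temperatures: 3 arrays of pft1-1 seedlings kept at 23C against 3 arrays of pft1-1 seedlings kept at 16C. The sample titles chose them, and they are 6 of the 12 arrays of the series. The other 6 arrays hold wild type Columbia (WT) seedlings, 3 at 23C and 3 at 16C. Every group was sampled whole at an age of 10 days after growth on agar with MS salts, in the Columbia background, under cool-white fluorescent lamps that were never switched off (80 micromoles per second and square metre). pft1-1 is a single mutant line, so an effect of that line and an effect of the gene cannot be told apart. In whole seedlings, fewer cells of a type and less RNA per cell cannot be told apart either. Both temperatures were sampled at the same age. A direct effect of temperature and a difference in the stage reached by 10 days therefore cannot be told apart.

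PFT1 (PHYTOCHROME AND FLOWERING TIME 1) encodes the MED25 subunit of Mediator, the complex that carries signals between DNA-bound transcription factors and RNA polymerase II. The subunit is known for work in phytochrome and jasmonate signalling, in defence, in flowering and in organ size. In Arabidopsis, moderate warmth is known to lower cold-acclimation genes and anthocyanin synthesis and to speed elongation and flowering, while stronger heat switches on chaperones. No probe set was matched to PFT1 itself, so the level of the mutated gene was not analysed here.

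Values are log2 probe set signals from one-colour Affymetrix arrays, and values near or below the lower quartile of all values, 2.52, are called near background. The 6 pft1-1 arrays had medians of 5.07 to 5.25. Arrays of replicate letter C stood apart: poly-A spike-in probe sets averaged 8.01 at 23C and 8.72 at 16C on the pft1-1 arrays of letter C, and 2.45 to 2.52 on those of letters A and B. The difference between 3′ and 5′ control probe sets, a measure of RNA quality, was 2.80, 2.70 and 4.53 log2 units at 23C (A, B, C), against 2.64, 2.66 and 3.52 at 16C. The temperatures overlapped in that measure (exact two-sided permutation p = 0.5, where 0.1 is the smallest that 3 against 3 can give), and its part in the results below was not tested. The leaf genes RCA (Rubisco activase) and PRK (phosphoribulokinase), the measured 2 of 20 leaf markers, read 12.93 to 14.74 on all 6 pft1-1 arrays and were not called.

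Between 23C and 16C, 4023 of 22746 probe sets differed in pft1-1 at an adjusted p under 0.05 in limma, 17.7% of those tested. An unadjusted p under 0.05 was found for 7347 (32.3%). At 23C, 1914 were higher (8.41%) and 2109 were lower (9.27%). These shares belong beside the counts given for each list below. Lists formed with the values known cannot be judged against them. Among probe sets with 1 named gene, 1055 of 13513 rose (7.81%) and 1097 fell (8.12%), and in 2145 of these the 3 arrays at 23C did not overlap the 3 at 16C. Among all probe sets 47.9% had no overlap, 32% with 23C higher and 15.9% with 23C lower. Falls were larger than rises: the median called rise was 1.00 log2 units and the median called fall was -1.25, and 190 called probe sets fell by at least 3 log2 units while 76 rose by as much. The median change of all probe sets was 0.04. Fitted on replicates A and B only, the counts were 1134 higher and 1200 lower, of which 741 and 1015 were also called with all arrays. Left out singly, the A array at 23C gave 1093 higher and 1390 lower, and the A array at 16C gave 1094 higher and 1405 lower. With the replicate letter as a block, 2607 were higher and 2560 lower on all 12 arrays, and 927 and 1076 on the 6 pft1-1 arrays alone. Centring each array on its median moved the median change by 0.10 to 0.14 and the split to 2650 higher and 1948 lower, so that 57.6% of calls were rises, against 47.6% without centring.

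**Figure D1:**
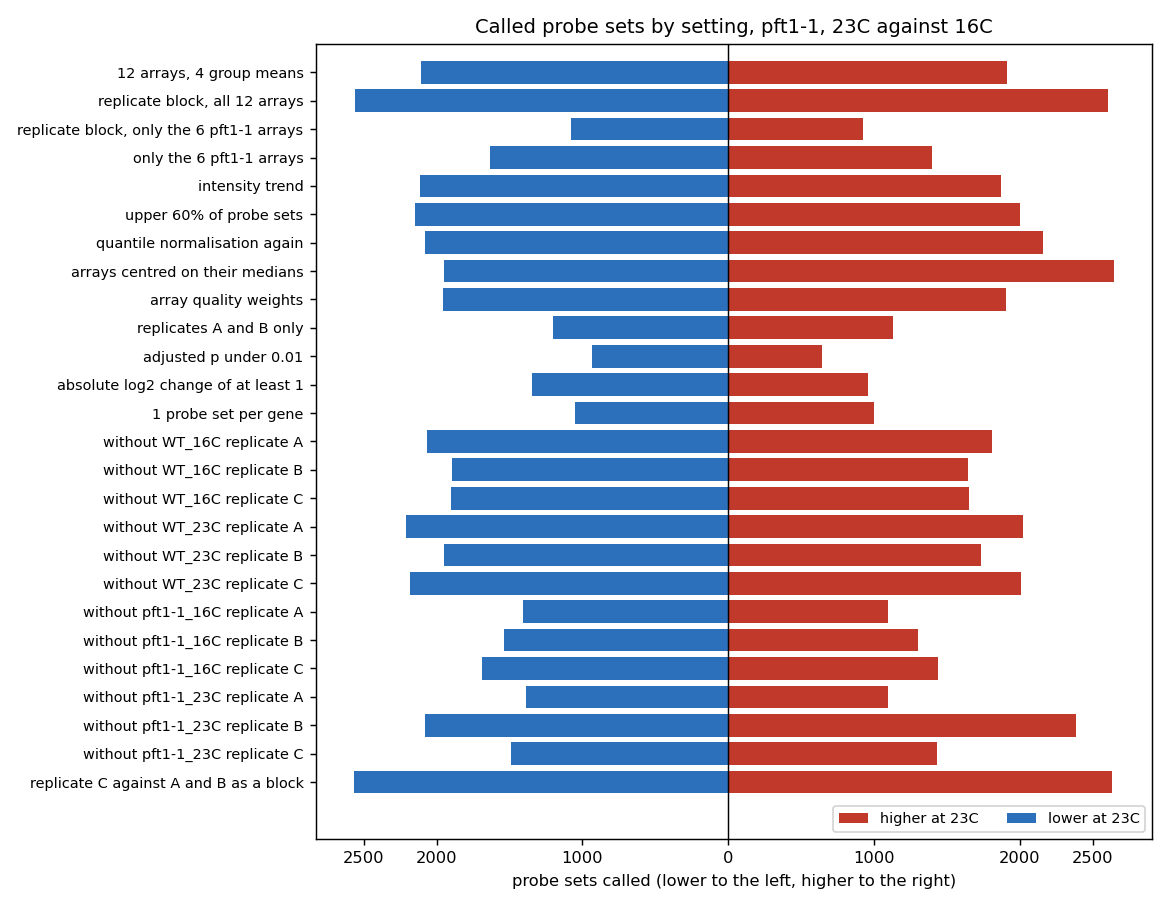
Number of probe sets called at an adjusted p under 0.05 (x axis; lower at 23C to the left in blue, higher at 23C to the right in red) in pft1-1 under each fit (y axis). The top row is the fit to all 12 arrays with 1914 higher and 2109 lower, and the counts without one of the pft1-1 A arrays fall to 1093 and 1094 higher.

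Of the 20 largest rises with 1 gene and no overlap, 15 belonged to loci listed here only by locus identifier. AT2G05540 rose most, with 12.96, 12.81 and 13.35 at 23C (A, B, C) and 6.32, 8.59 and 7.05 at 16C. All 3 arrays at 23C lay far above those at 16C, and the change was 5.72 ± 0.62 log2 units (SE, n = 3 each, adjusted p = 0.00109). AT1G62510 (4.96 ± 0.98) and AT1G19530 (4.81 ± 0.83) followed. After HIS1-3, BHLH101 (4.50 ± 1.04) and AT5G51440 (4.28 ± 0.67) came AT4G27450 (4.24 ± 0.79) and AT1G22890 (4.18 ± 0.61). HIS1-3, a linker histone H1 known to be induced by drought, read 8.99, 8.24 and 8.98 at 23C, against 3.73, 4.65 and 3.87 at 16C. Its groups were far apart on every array, with a change of 4.65 ± 0.47 (adjusted p = 0.00089). Among the 20, the call of AT2G20670 (3.65 ± 0.87) was lost without either A array or without the C array at 23C (adjusted p up to 0.069), and that of BHLH101 without any 1 of those 3 or the B array at 16C (up to 0.0595).

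Falls reached further. AT2G43590 read 2.42, 3.11 and 2.99 at 23C, against 10.39, 9.23 and 10.55 at 16C, a change of -7.22 ± 0.52 (adjusted p = 0.000166). The probe set was among the brighter ones at 16C and near background at 23C on every array. The tau-class glutathione transferase GSTU25 (-6.03 ± 0.58), AT1G18980 (-5.41 ± 0.18), AT5G59330 (-5.32 ± 0.51) and AT1G73620 (-5.32 ± 0.79) came next. The 20 largest falls ended at AT5G05960 with -4.39 ± 0.52, and all of them kept their calls whichever single array was left out. Probe sets with no named gene went further up, and the first of them read 10.54, 9.16 and 11.32 at 23C, against 3.50, 2.86 and 2.93 at 16C (7.24 ± 0.51, adjusted p = 0.000154).

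**Figure D2:**
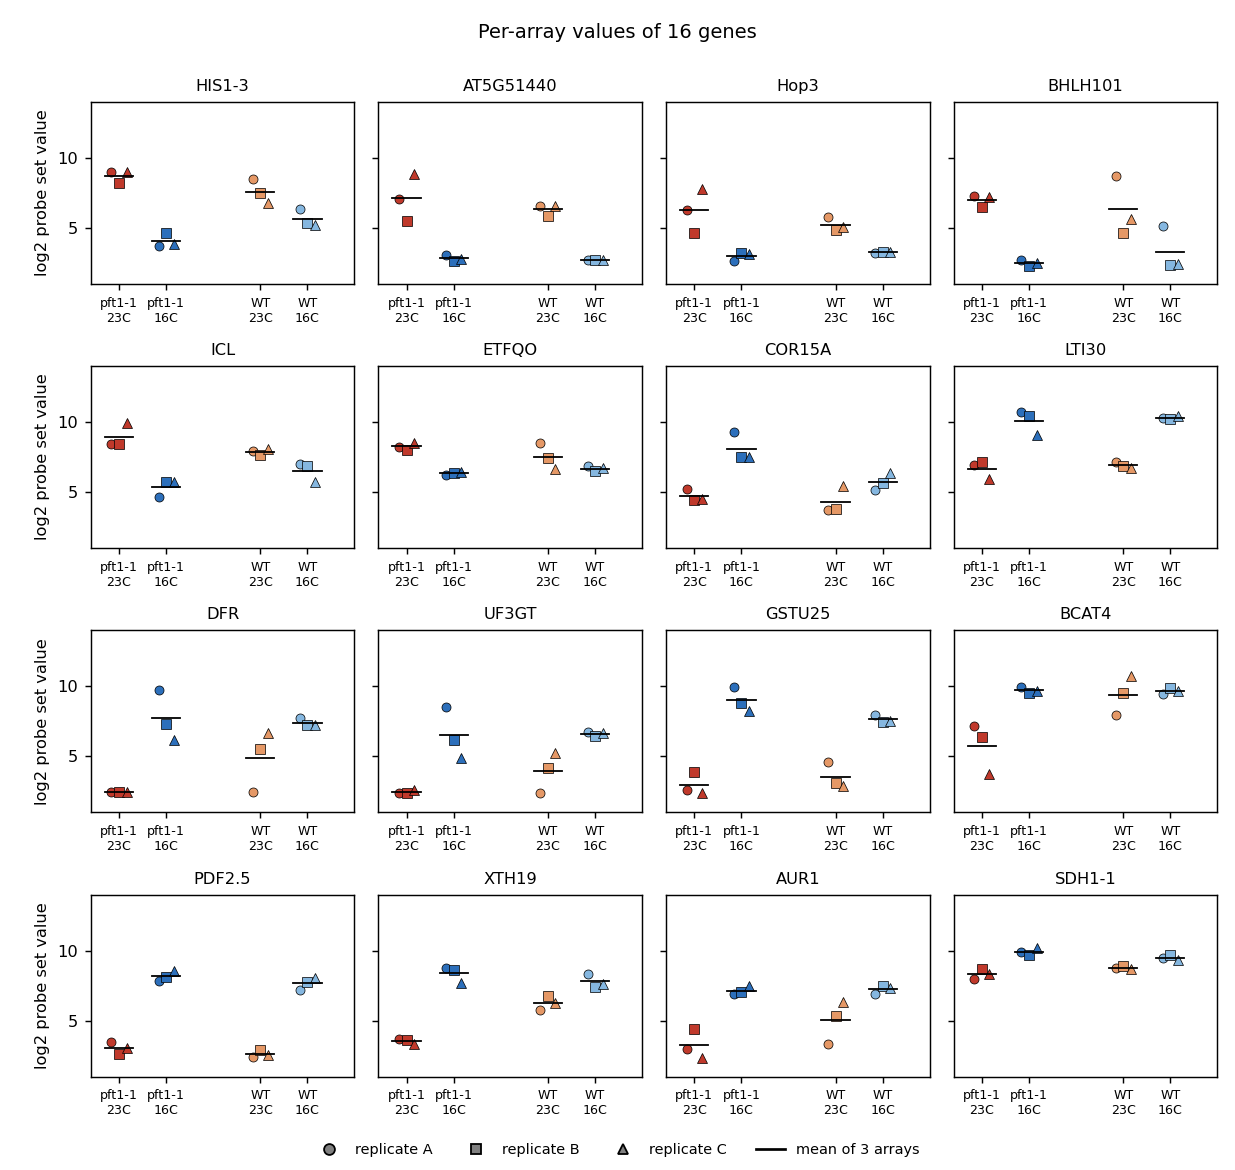
Log2 probe set values (y axis) of 16 genes on each array of pft1-1 at 23C and 16C and of WT at 23C and 16C (x axis); symbols mark replicate letters and bars the mean of 3 arrays. In pft1-1 the arrays at 23C and 16C do not overlap in any of the 16, for example 8.24 to 8.99 against 3.73 to 4.65 in HIS1-3.

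Cold-responsive genes split. Of 7 measured members of 33 listed, 3 fell, 1 rose and 3 were not called, with a median change of 0.05. Over all probe sets 9.27% were called lower and 8.41% higher. COR15A, a chloroplast protein that guards membranes during freezing, read 5.21, 4.44 and 4.52 at 23C, against 9.28, 7.48 and 7.54 at 16C. The groups did not overlap, and COR15A fell by 3.38 ± 0.61 log2 units (adjusted p = 0.00699). The dehydrin LTI30 read 6.97, 7.12 and 5.92 at 23C, against 10.74, 10.44 and 9.05 at 16C, a fall of 3.40 ± 0.44 (adjusted p = 0.00188), with the C arrays lowest at each temperature. COR15B, the paralogue of COR15A, fell by 2.41 ± 0.64 (adjusted p = 0.0308), a call lost without either C or either A array or without the B array at 16C (up to 0.102). COR47, another dehydrin, changed by 0.05 ± 0.37 and its groups overlapped. AT4G33980, on the list by its locus, rose by 1.07 ± 0.32 (adjusted p = 0.0498). Its call was lost with the replicate block (adjusted p = 0.0573) and without any 1 of 9 of the 12 arrays (up to 0.153).

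Some heat-shock genes and co-chaperones rose, and none of those measured was called lower. On the heat-shock list 2 of 7 measured members of 29 rose and 0 fell, with a median change of 0.70. AT5G51440 read 7.04, 5.50 and 8.84 at 23C, against 3.09, 2.66 and 2.77 at 16C. It was near background on all arrays at 16C and on none at 23C, and rose by 4.28 ± 0.67 (adjusted p = 0.00374). AT5G48570 (ROF2, also FKBP65, a peptidyl-prolyl isomerase tied to heat tolerance) rose by 2.45 ± 0.55 (adjusted p = 0.0166), a call lost without either A array (up to 0.0596). The remaining 5 were not called, and of these HSA32, a heat-acquired tolerance protein, changed by 1.01 ± 0.46. A list of 7 co-chaperones of the Hop, Fes1 and SGT1 families, which help Hsp70 and Hsp90 work, was formed after the values had been seen. Of these 4 rose and 0 fell. Hop3 read 6.31, 4.66 and 7.77 at 23C, against 2.66, 3.23 and 3.16 at 16C (3.23 ± 0.64, adjusted p = 0.00975). SGT1A rose by 1.94 ± 0.20, Fes1C by 1.71 ± 0.29 and Fes1A by 1.65 ± 0.28, each without overlap. Hop1 and Hop2, already between 8.26 and 9.07 on all 6 arrays, were not called. Of 14 bZIP genes, a list also formed with the values known, 2 were called and both rose, beside 8.41% of all probe sets called higher. These were the membrane-tethered factors BZIP17 (1.21) and BZIP28, which act in the endoplasmic reticulum stress response. BZIP17 lost its call without the A array at 16C (adjusted p = 0.0572).

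Transcripts of the few measured genes on the pigment list fell, those of DFR and UF3GT to near background. All 3 measured members of 21 listed flavonoid and anthocyanin genes fell, beside 9.27% of all probe sets called lower. DFR (dihydroflavonol reductase, which leads into anthocyanins) read 2.43, 2.45 and 2.49 at 23C, against 9.77, 7.32 and 6.17 at 16C. The arrays at 23C were alike, those at 16C spread over more than 3 log2 units, and the change was -5.30 ± 1.09 (adjusted p = 0.0119). UF3GT, which adds xylose to anthocyanins, read 2.41, 2.40 and 2.57 at 23C, against 8.54, 6.14 and 4.88 at 16C (-4.06 ± 0.90, adjusted p = 0.0156), and AT4G14090 fell by 4.01 ± 0.67. In each of the 3 genes the A array was the highest of those at 16C. In a wider list of 17 flavonoid and phenylpropanoid genes, formed after the values had been seen, 9 fell, 0 rose and the median was -1.42. AT3G13610 (F6'H1, which leads to scopoletin and other coumarins) read 2.13, 2.94 and 2.14 at 23C, against 8.05, 6.76 and 7.81 at 16C (-5.13 ± 0.49, adjusted p = 0.000725). CHIL, a chalcone isomerase-like protein, fell by 2.32 ± 0.39, and UGT72E2, a glucosyltransferase of monolignols, by 2.32 ± 0.49. HCT, an early enzyme of the lignin branch, changed by 0.05 ± 0.21, and the flavonol glycosyltransferases UGT78D1, UGT78D2 and UGT78D3 were not called. On replicates A and B only, 6 of the 17 fell.

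Detoxification and glucosinolate genes were lower in most called cases. Among 14 glutathione S-transferases 5 fell, 1 rose and the median was -0.81. Over all probe sets 9.27% were called lower and 8.41% higher. GSTU25 read 2.63, 3.86 and 2.40 at 23C, against 9.94, 8.83 and 8.22 at 16C, and GSTU22 read 4.33, 4.18 and 4.26 at 23C, against 8.67, 7.45 and 7.93 at 16C (-3.76 ± 0.37, adjusted p = 0.000835). Both had wide gaps between the temperatures. GSTU26 fell by 2.76 ± 0.57, while GSTU16 rose by 1.36 ± 0.20 (adjusted p = 0.0031). Of 5 measured members of 25 glucosinolate genes 3 fell and 0 rose, with a median of -0.93. BCAT4, the aminotransferase that starts methionine chain elongation, read 7.15, 6.41 and 3.75 at 23C, against 9.94, 9.52 and 9.69 at 16C. The C array at 23C was lowest, the groups did not overlap, and the change was -3.94 ± 0.88 (adjusted p = 0.0157, 0.0527 without the A array at 16C). GSTU20, on the same list, fell by 3.69 ± 0.68, and PYK10, the β-glucosidase of root endoplasmic reticulum bodies, by 0.93 ± 0.26 (adjusted p = 0.0398). The PYK10 call was lost without any 1 of 8 of the 12 arrays (up to 0.129), and 1 of the 3 falls was called without the A array at 16C. Of 7 ascorbate and glutathione redox genes, a list also formed with the values known, 6 fell and 1 rose. SAPX, a plastid ascorbate peroxidase, fell by 1.55 ± 0.30, and PMM, the phosphomannomutase of the ascorbate route, by 1.29 ± 0.25. GME, also of the ascorbate route, was the member that rose (0.69 ± 0.20), a call lost without any 1 of 9 arrays. The falls numbered 3 on replicates A and B only, and 2 without either the A array at 16C or the C array at 23C.

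A few defence peptide genes were called. Of 15 plant defensin genes 3 fell and 1 rose, with a median of 0.03. Among all probe sets 9.27% were called lower and 8.41% higher. PDF2.5 read 3.45, 2.63 and 3.03 at 23C, against 7.85, 8.14 and 8.52 at 16C, a clear gap in each letter (-5.14 ± 0.29, adjusted p = 3.85e-05). PDF2.1 read 3.54, 3.96 and 3.38 at 23C, against 8.79, 8.46 and 7.97 at 16C (-4.78 ± 0.74, adjusted p = 0.00371). PDF1.4 went the other way, with 6.10, 5.40 and 7.72 at 23C and 2.93, 2.86 and 3.03 at 16C (3.47 ± 0.89, adjusted p = 0.0281), though its call was lost without either A or either C array or without the B array at 16C (up to 0.0908). Of 6 measured members of 27 jasmonate genes 1 fell and 0 rose. OSM34, an osmotin-like protein, read 5.42, 5.42 and 6.32 at 23C, against 8.22, 7.94 and 8.71 at 16C (-2.57 ± 0.43, adjusted p = 0.00486). PDF1.2, a defensin used as a marker of joint jasmonate and ethylene signalling, read 4.23, 3.08 and 4.01 at 23C, against 3.72, 3.68 and 3.69 at 16C. Its groups overlapped and the change was 0.08 ± 0.63. Chosen after their values were seen, the class V chitinase ChiC fell by 3.68 ± 0.48 and the thaumatin-like protein ATLP-1 by 4.27 ± 0.69.

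Some cell wall genes fell, beside 9.27% of all probe sets that were called lower. Of 9 xyloglucan endotransglucosylases, which cut and rejoin wall xyloglucan, 2 fell and 0 rose, with a median of -0.80. XTH19 averaged 3.53 ± 0.20 at 23C, against 8.36 ± 0.59 at 16C (SD, n = 3 each; -4.83 ± 0.36, adjusted p = 0.000181), and XTH20 fell by 3.18 ± 0.40. Neither gene's groups overlapped. Of 14 expansins, which loosen walls, 2 fell (EXPB3 by 3.02 ± 0.76 and EXPB1 by 2.03 ± 0.44), 0 rose and the median was -1.28. The expansin share was near that of all probe sets, and neither call stood without the C array at 23C (adjusted p 0.0504 for EXPB1 and up to 0.0850 for EXPB3, whose call was also lost without either A array or without the B array at 16C). A list of 24 probe sets of trichome birefringence-like genes, which acetylate wall polysaccharides, was formed with the values known. Of these 6 fell and 1 rose (TBL25 by 1.18 ± 0.28, lost without the A array at 23C or the B or C array at 16C). TBL39 read 3.73, 4.65 and 2.54 at 23C, against 7.23, 7.46 and 7.15 at 16C (-3.63 ± 0.54, adjusted p = 0.00325). The falls in this family numbered 3 without the A array at 16C. Of 4 measured of 17 listed root and root hair genes 1 fell and 0 rose. HRGP1 (a wall glycoprotein, on a probe set that may also bind related genes) fell by 2.91 ± 0.43, while AT4G26010 (-3.47 ± 1.19), EXPA18 (-1.92 ± 0.81) and EXPA7 (-1.77 ± 0.93) were not called. AT4G26010 was called with the replicate block (adjusted p = 0.0483). Summed on the linear scale these 4 read 26.6, 25.4 and 24.96 at 23C, against 310.0, 238.4 and 100.1 at 16C. The 2 root hair expansins read near background on all arrays at 23C and on the C array at 16C, and the part of root tissue in the wall and defence results was not tested.

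Most measured members of the cell division lists fell. On the cell cycle list, 3 of 4 measured members of 16 fell and 0 rose, with a median of -1.87. Over all probe sets 9.27% were called lower and 8.41% higher. AUR1, an Aurora kinase of the mitotic spindle, read 2.99, 4.37 and 2.33 at 23C, against 6.90, 7.01 and 7.46 at 16C (-3.90 ± 0.73, adjusted p = 0.00793). AUR2 fell by 2.08 ± 0.32 and PRL (PROLIFERA, a replication licensing factor) by 1.67 ± 0.33, while AUR3 (-0.71 ± 0.30) was not called, except with the replicate block (adjusted p = 0.0412) or without the A array at 16C. A list of 22 genes of mitosis and chromosome structure, formed with the values known and holding these 4, had 16 falls, 1 rise and a median of -1.42. Because of how it was formed, its counts do not describe cell division genes as a whole. 3xHMG-box2, which binds mitotic chromosomes, read 5.39, 6.44 and 4.28 at 23C, against 8.37, 8.55 and 9.20 at 16C (-3.33 ± 0.55, adjusted p = 0.00501). Topoisomerase TOPII fell by 2.42 ± 0.40, the phragmoplast motor KINESIN-12B by 2.09 ± 0.42, the spindle checkpoint proteins BUB3.1 and BUBR1 by 1.64 ± 0.24 and 1.48 ± 0.21, and the histone H2B gene HTB1 by 1.81 ± 0.29. ATMAP65-6, a microtubule-binding protein, was the member that rose (0.50 ± 0.11), a call lost without the A array at 16C or the C array at 23C (up to 0.0624). Between 12 and 15 members fell when any single array was left out, and 7 fell on replicates A and B only. Of 7 tubulins 2 fell (TUB1 and TUB7) and 1 rose (TUA1), and 1 fell and 0 rose without the A or the C array at 23C or the C array at 16C. TUB1 read 4.78, 5.50 and 3.82 at 23C, against 8.40, 8.39 and 7.81 at 16C (-3.50 ± 0.42, adjusted p = 0.00142).

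**Figure D3:**
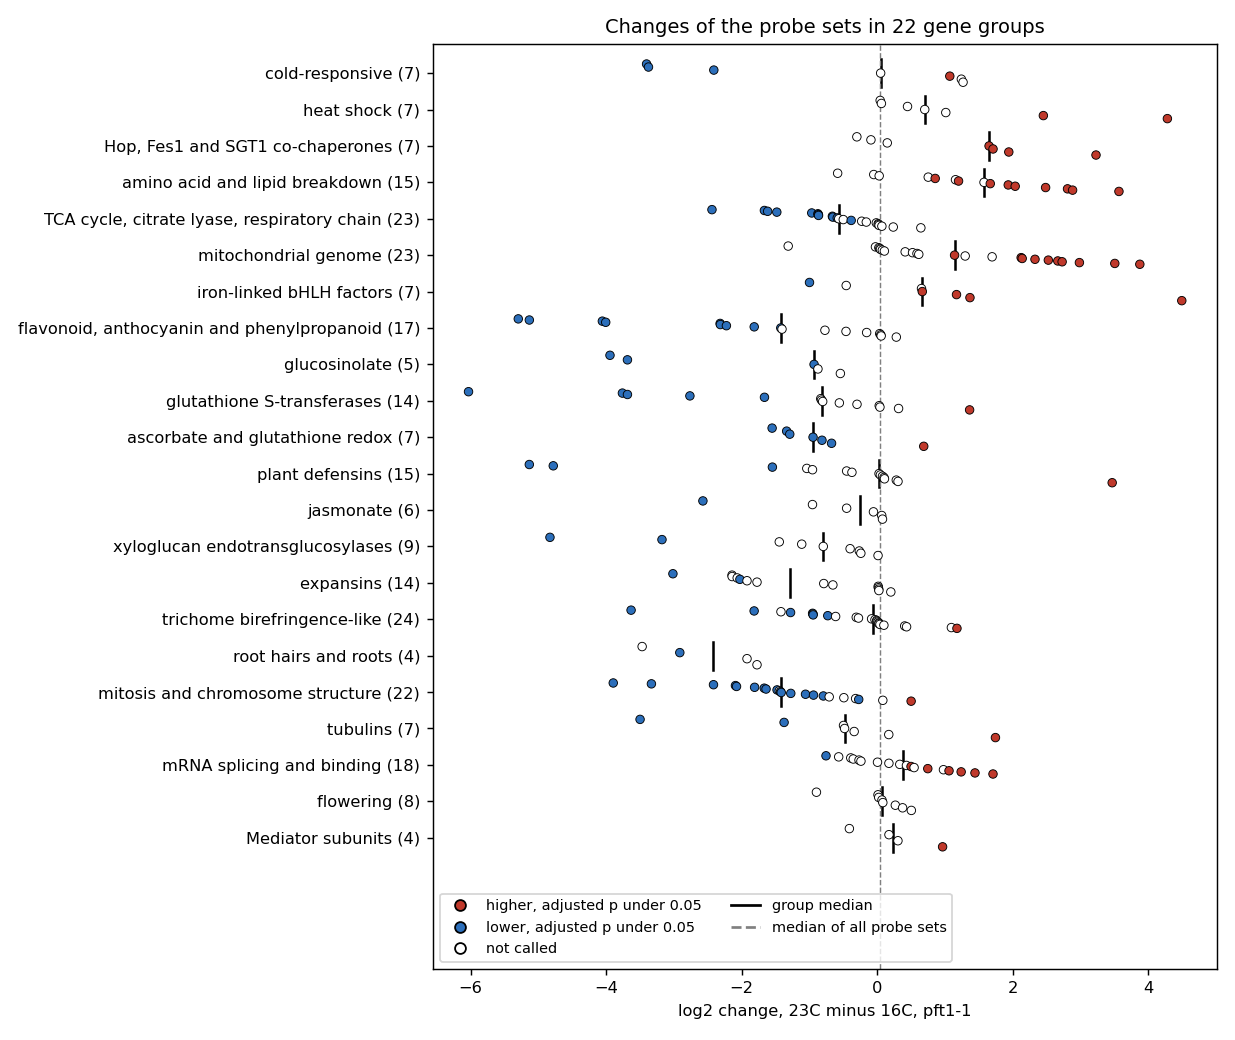
Log2 change, 23C minus 16C, in pft1-1 (x axis) of every probe set in 22 gene groups (y axis, with the number of probe sets). Red points were called higher, blue points called lower and white points not called; bars are group medians, from -2.42 for the 4 root genes to 1.65 for the 7 co-chaperones, and the dashed line is the median of all probe sets, 0.04.

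On the carbon metabolism lists used here, the called genes of breakdown rose. The called genes on the list of the tricarboxylic acid cycle, citrate lyase and respiratory chain fell. Both lists were formed after the values had been seen. Of 15 genes of amino acid and lipid breakdown 9 rose and 0 fell, with a median of 1.58. Over all probe sets 8.41% were called higher. ICL, isocitrate lyase of the glyoxylate cycle, read 8.46, 8.41 and 9.92 at 23C, against 4.64, 5.75 and 5.70 at 16C (3.57 ± 0.50, adjusted p = 0.00246). ETFQO, which passes electrons from amino acid breakdown to ubiquinone, read 8.23, 8.04 and 8.54 at 23C, against 6.21, 6.37 and 6.43 at 16C (1.93 ± 0.39, adjusted p = 0.0102). Neither gene's groups overlapped. Methionine γ-lyase MGL rose by 2.88 ± 0.63, MCCA of leucine breakdown by 2.81 ± 0.68, isovaleryl-CoA dehydrogenase IVD by 2.49 ± 0.65 and ornithine aminotransferase DELTA-OAT by 1.67 ± 0.30. The rises numbered 2 on replicates A and B only, and 5 without either the A or the C array at 23C; MGL lost its call in both of the latter, MCCA without the C array at 23C or the A or B array at 16C, and IVD without any one of 5 pft1-1 arrays, the B array at 23C excepted (adjusted p up to 0.0868 among the 3).

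Of 23 probe sets for the tricarboxylic acid cycle, isocitrate dehydrogenases, ATP citrate lyase and respiratory chain, 12 fell and 0 rose, with a median of -0.57. Over all probe sets 9.27% were called lower. Respiratory chain genes of the mitochondrial genome are on a separate list below. Those called there rose, such as nad5 (2.67) and nad9 (2.53). SDH1-1, the flavoprotein of succinate dehydrogenase, read 7.96, 8.67 and 8.30 at 23C, against 9.89, 9.71 and 10.18 at 16C (-1.62 ± 0.18, adjusted p = 0.00112). NDB2, an alternative NADH dehydrogenase, read 5.70, 5.46 and 4.87 at 23C, against 8.33, 7.64 and 7.38 at 16C (-2.44 ± 0.31, adjusted p = 0.0018). Neither overlapped between temperatures. NAD-isocitrate dehydrogenase IDH-VI fell by 1.67 ± 0.27, citrate lyase subunit ACLA-2 by 1.48 ± 0.22, pyruvate dehydrogenase subunit MAB1 by 0.88 ± 0.10 and cytochrome c gene CYTC-1 by 0.87 ± 0.12. On replicates A and B only, 7 of the 23 fell. The cytosolic isocitrate dehydrogenase cICDH, at 12.74 to 13.18 on all 6 arrays, was not called.

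Among single genes chosen after their values were seen, formate dehydrogenase FDH read 12.13, 12.04 and 11.43 at 23C, against 9.21, 9.69 and 8.49 at 16C (2.74 ± 0.53, adjusted p = 0.0089). AKINBETA1, a β subunit of the energy-sensing kinase SnRK1, rose by 2.19 ± 0.58 (adjusted p = 0.0308), a call lost without any one of the pft1-1 arrays other than the B array at 23C (up to 0.101). PGM, annotated as a phosphoglycerate mutase, fell by 2.36 ± 0.31. DI19, a drought-induced zinc finger protein, read 12.96, 12.80 and 12.88 at 23C, against 10.63, 10.95 and 10.82 at 16C, a narrow spread at each temperature (2.08 ± 0.08, adjusted p = 6.19e-06). XERICO, a RING protein linked to abscisic acid levels, rose by 1.98 ± 0.21. Of 3 measured members of 17 starch genes 2 fell and 0 rose: APL3, a subunit of ADP-glucose pyrophosphorylase, by 1.65 ± 0.44 and the disproportionating enzyme DPE1 by 0.61 ± 0.18, and both calls were lost without any 1 of the A or C arrays of pft1-1 (adjusted p up to 0.151). DPE1 had groups that overlapped, and its call was also lost without any of 6 further arrays, and that of APL3 without the B array at 23C. Of 15 sugar transporters 2 fell (SWEET13 and SWEET14) and 1 rose (SWEET16), beside 9.27% of all probe sets called lower and 8.41% called higher. The SWEET14 call was lost without any 1 of the arrays at 23C (adjusted p up to 0.0759), and the SWEET16 call without the A or C array at 23C or the C array at 16C (up to 0.0786). SWEET13, which exports sucrose, read 3.18, 2.92 and 2.91 at 23C, against 6.30, 5.14 and 4.74 at 16C (-2.39 ± 0.34, adjusted p = 0.00257).

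Some transcripts of the mitochondrial genome rose, and most of those of the plastid genome did not pass the test. Of 23 probe sets for mitochondrial genes, a list formed with the values known, 10 rose and 0 fell, with a median of 1.14. Over all probe sets 8.41% were called higher and 9.27% lower. A probe set for nad1, a subunit of respiratory complex I, read 6.80, 4.91 and 7.09 at 23C, against 2.39, 2.39 and 2.39 at 16C (3.88 ± 0.54, adjusted p = 0.00238). The B array at 23C was lowest, and the arrays at 16C were at background. The cytochrome c maturation gene ccb452 read 7.46, 6.13 and 7.52 at 23C, against 3.85, 3.68 and 4.63 at 16C (2.98 ± 0.53, adjusted p = 0.00648). Of the 7 nad1 probe sets 4 rose, and the other 3 changed by 0.05 to 0.11, were not called and read near background. Transcripts of the organelle and of the copy of mitochondrial DNA in the nuclear genome cannot be told apart here. The median change of the group was 1.47 in A, 0.23 in B and 1.64 in C. The 3′ minus 5′ control difference given above was higher at 23C in each letter and most so in C, and its part was not tested. On replicates A and B only, 3 of the 23 rose. Of 69 probe sets for plastid genes 2 rose (psbA of photosystem II by 0.72 ± 0.21, adjusted p 0.0559 with the replicate block, and rps14 by 1.26 ± 0.31) and 1 fell (rps3 by 0.70 ± 0.19), and no one of the 3 was called on replicates A and B only.

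Both measured members of 18 iron deficiency genes were higher at 23C, beside 8.41% of all probe sets called higher. BHLH101, an iron deficiency transcription factor of the bHLH family, read 7.25, 6.50 and 7.19 at 23C, against 2.70, 2.28 and 2.49 at 16C. It was near background on all arrays at 16C and well above it at 23C (4.50 ± 1.04, adjusted p = 0.0181). PYE (POPEYE, a repressor in the same response) read 7.34, 7.26 and 7.48 at 23C, against 6.27, 5.22 and 6.48 at 16C (1.37 ± 0.32, adjusted p = 0.02). In a wider list of 7 such factors, formed after the values were seen, bHLH121 (1.17 ± 0.23) and ILR3 (0.67 ± 0.16) also rose and bHLH115 (-0.999 ± 0.23) fell. Without either the A or the C array at 23C 1 of the 4 rises was called, without the A or the B array at 16C 2 were, and on replicates A and B only none (BHLH101 4.39 log2 units, adjusted p = 0.156).

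Some RNA-processing genes rose. In a list of 18 genes of mRNA splicing and binding, formed with the values known, 6 rose and 1 fell, with a median of 0.38. Among all probe sets 8.41% were called higher and 9.27% lower. Because of how the list was formed, its counts do not describe RNA-processing genes as a whole. ATRBP45C, an RNA-binding protein, read 11.55, 10.82 and 11.17 at 23C, against 9.58, 9.45 and 9.39 at 16C (1.71 ± 0.32, adjusted p = 0.00807). U2AF35B, the small subunit of the factor that marks 3′ splice sites, rose by 1.44 ± 0.27 and MAC3B, of the spliceosome-associated PRP19 complex, by 1.24 ± 0.21. Its paralogue MAC3A was not called (-0.39 ± 0.19). Y14, of the exon junction complex, was the member that fell (-0.76 ± 0.18, adjusted p up to 0.0769 without the A or the C array at 16C). The rises numbered 3 without any one of the 16C arrays or the A array at 23C, and 5 on replicates A and B only.

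Flowering, gibberellin and elongation lists showed little that passed. Of 8 measured members of 34 flowering genes none was called, with changes of -0.90 (SMZ, a floral repressor) to 0.50 (AT1G69570) and a median of 0.08, and 1 of the 8 had groups that did not overlap, against 47.9% of all probe sets. GIGANTEA (GI), which links the clock to flowering, read 7.55, 7.46 and 7.98 at 23C, against 6.91, 7.56 and 7.71 at 16C (0.27 ± 0.24). ATC, a relative of the floral repressor TFL1 that was chosen after its value was seen, fell by 3.15 ± 0.59 (adjusted p = 0.00808). None of the 3 gibberellin receptors measured was called, with GID1C at 0.74 ± 0.31 and GID1A at 0.68 ± 0.41 and both called on replicates A and B only (adjusted p 0.0276 and 0.0362), while GID1C was also called with the replicate block (0.0159). Both measured members of 26 warmth and shade elongation genes were not called. Of 16 auxin genes in a list formed with the values known 2 rose, WES1 and IAA18 (0.88 ± 0.25, adjusted p = 0.0398), and 1 did without any 1 of 9 arrays. That share was near the 8.41% of all probe sets called higher, and the list median was 0.04. WES1 (GH3.5, which conjugates auxin to amino acids) read 9.02, 8.76 and 8.59 at 23C, against 6.49, 6.91 and 6.72 at 16C (2.08 ± 0.35, adjusted p = 0.00507). Of 6 response regulators 2 fell, beside 9.27% of all probe sets called lower. Both were of the type-A class known to be induced by cytokinin. RR16 fell by 2.01 ± 0.34 and ARR15 by 1.19 ± 0.30. The ARR15 call was lost without any 1 pft1-1 array but the C array at 16C (up to 0.0818).

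Other Mediator subunits were mostly not called. Of 4 measured of 18 listed, MED19A read 7.12, 6.73 and 6.79 at 23C, against 5.82, 5.91 and 6.02 at 16C. The groups did not overlap and MED19A rose by 0.97 ± 0.17 (adjusted p = 0.00652). MED6 (0.31 ± 0.27), MED31 (0.17 ± 0.23) and AT2G22370, the MED18 locus (-0.41 ± 0.32), overlapped between temperatures. The reference genes AT2G28390, AT4G34270 and PEX4 changed by -0.15 to 0.08 and were not called.

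The same comparison in WT, on other arrays, called 395 probe sets higher (1.74%) and 717 lower (3.15%), 4.89% in all, and 18.7% had an unadjusted p under 0.05. In WT, 26% of probe sets had groups that did not overlap. Of the called probe sets, 324 were called higher in both genotypes, 16.9% of the pft1-1 rises and 82.0% of the WT rises. Another 626 were called lower in both, 29.7% of the pft1-1 falls and 87.3% of the WT falls. A probe set with no named gene was the 1 called in opposite directions. Across all 22746 probe sets the pft1-1 and WT changes correlated with Pearson's r of 0.84, a description across probe sets, which are not independent and share the replicate letters. Over the 1112 probe sets called in WT, the median size of change was 1.26 in pft1-1 and 1.202 in WT, and 660 of them changed more in pft1-1. The median spread within groups was alike in size, 0.20 at 23C and 0.17 at 16C in pft1-1 (SD), and 0.20 at 23C and 0.16 at 16C in WT, but weighting arrays by quality raised the WT calls to 2079 higher and 2216 lower and left the pft1-1 calls at 1903 and 1959.

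Tested directly, the difference of the temperature change between pft1-1 and WT was called for 0 of 22746 probe sets in limma (0%). At an unadjusted p under 0.05 it had 1259 (5.54%), and 1730 with the replicate block, where 0 were called too. Leaving out single arrays gave 0 to 6 calls: 6 without the A array of pft1-1 at 16C or the B array of pft1-1 at 23C, 2 without the B or the C array of pft1-1 at 16C, and 1 without the C array of WT at 16C or of pft1-1 at 23C. The smallest adjusted p was 0.237, shared by 5 probe sets. AT2G43590 read 6.14, 7.29 and 5.84 in WT at 23C, against 9.11, 8.09 and 7.58 in WT at 16C, a change of -1.83 beside -7.22 in pft1-1 (difference -5.38, unadjusted p = 4.5e-05, adjusted p = 0.237). AT1G18980 changed by -5.41 in pft1-1 and by -3.35 in WT, with the same adjusted p. XTH19 changed by -4.83 in pft1-1 and by -1.54 in WT (adjusted p of the difference 0.285).

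PDF1.2 and PDF1.2b showed the reverse pattern of levels. PDF1.2b read 3.41, 2.82 and 2.97 in pft1-1 at 23C, and 2.96, 4.04 and 5.06 in pft1-1 at 16C. In WT it read 8.70, 10.30 and 10.96 at 23C, against 6.54, 5.01 and 4.93 at 16C. WT rose by 4.49 ± 0.71 (adjusted p = 0.0113) while pft1-1 changed by -0.96 ± 0.71, and the difference of -5.45 ± 1.00 had an adjusted p of 0.368. PDF1.2 gave 0.08 ± 0.63 in pft1-1 and 4.19 ± 0.63 in WT (difference -4.11 ± 0.89, adjusted p = 0.516). These near-identical defensin genes may share probes, so their values are not independent. BCAT4 changed by -3.94 in pft1-1 and by -0.27 ± 0.88 in WT (adjusted p of the difference 0.784), and PDF2.5 by -5.14 in pft1-1 and -5.02 in WT.

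**Figure D4:**
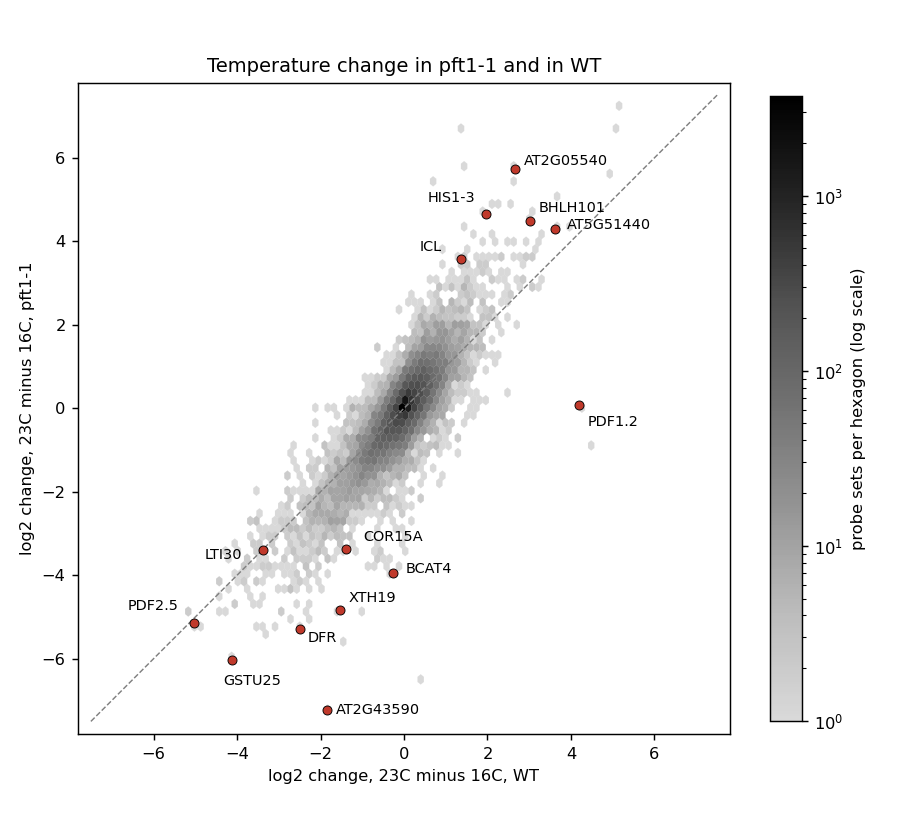
Log2 change, 23C minus 16C, in pft1-1 (y axis) against that in WT (x axis) for all 22746 probe sets, as hexagons shaded by their number on a log scale, with 14 genes as red points. The dashed line marks equal change. PDF1.2 lies at 0.08 in pft1-1 and 4.19 in WT, and AT2G43590 at -7.22 in pft1-1 and -1.83 in WT.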

How the data were processed

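The authors deposited 1 log2 value per probe set and array; RMA and affy are named, without versions, per the submitters' processing notes. Probe sets were named through the platform annotation, updated through Entrez gene identifiers to TAIR10.1 names. Of 22810, 64 were controls and 13513 of the other 22746 (59.4%) had 1 gene, 503 had several and 8730 had none here. No filter on low values was applied. Means of the 4 groups were fitted on all 12 arrays with limma 3.58.1 in R 4.3.3 (lmFit, eBayes, 8 residual degrees of freedom), with Benjamini-Hochberg adjustment over 22746 probe sets and calls at 0.05; the procedure was tested on simulated data. SE is limma's. Members and lists were chosen with earlier results of these data known; lists said to be formed after the values were seen are later still. Named genes were the 20 largest rises and falls without overlap, and up to 4 called and 3 uncalled members of each list; others are said to be chosen after their values were seen, and members of the added lists were all chosen so. Listed genes without a named probe set were not analysed here. The main fit was unpaired: the replicate letter, taken from the titles, entered only as a block in alternative fits. Residuals of same-letter pft1-1 arrays correlated at 0.200, 0.196 and 0.339 across temperatures (A, B, C). A at 23C with B at 16C (0.227) and B at 23C with A at 16C (0.139) were as alike: C stood apart from A and B, and A was not separated from B. p-values measure the spread between seedling samples whose RNA was prepared separately, per the labels. Alternatives were the replicate block, the 6 arrays alone, an intensity trend, the upper 60% of probe sets, renewed quantile normalisation, centring, array weights, A and B only, stricter thresholds, a single probe set for each gene and the removal of single arrays.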

Additional observations from a re-analysis of the deposited data

Results flagged for a closer look

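The log2 change of AT2G31790, on the glucosinolate list, ran opposite ways with no overlap in either genotype: -0.54 in pft1-1 (8.49, 8.79 and 8.03 at 23C, against 9.21, 8.87 and 8.87 at 16C) and 0.60 in WT (9.08, 9.25 and 9.23 at 23C, against 8.80, 8.49 and 8.47 at 16C). Neither change was called, and the difference of -1.15 had an unadjusted p of 0.00173 and an adjusted p of 0.592 in limma.

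A probe set with no named gene was called in opposite directions, at -0.37 in pft1-1 (5.48, 5.48 and 5.53 at 23C, against 6.08, 5.76 and 5.77 at 16C) and 0.52 in WT (5.78, 5.60 and 5.76 at 23C, against 5.14, 5.04 and 5.40 at 16C). The difference of -0.89 had an unadjusted p of 0.000305 and an adjusted p of 0.347.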

How the results depend on the processing

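Counts of higher and lower probe sets in pft1-1, 1914 and 2109, were 927 and 1076 on the 6 pft1-1 arrays with the replicate block, 1134 and 1200 on replicates A and B only, 641 and 932 at an adjusted p under 0.01, 958 and 1349 at an absolute log2 change of at least 1, and 999 and 1050 with 1 probe set per gene (13350 tested). Leaving out single arrays gave 1093 to 2384 higher and 1390 to 2212 lower, and 0 to 6 calls for the difference from WT. The replicate block on all 12 arrays gave 2607 and 2560, and replicate C as its own block, chosen after seeing the data, 2631 and 2566. Directions turned in 2 uncalled genes: COR47 (0.05) was -0.13 with array weights, -0.19 on replicates A and B only, and -0.29 to 0.23 with single arrays left out (-0.29 without the C array at 16C, -0.04 without the B array at 23C). PDF1.2 (0.08) was -0.043 on replicates A and B only, and -0.15 to 0.42 with single arrays left out (-0.15 without the A and -0.041 without the C array at 23C). Of 206 called probe sets in the lists and names, 67 kept their call in every setting counted. The stricter thresholds and the fit with 1 probe set per gene were left out of that count. The call was lost in 8 with the replicate block on 12 arrays, in 100 on A and B only and in 75 in at least 1 leave-one-out fit. The causes were not tested. Near background, small values limit what a fall can show. The promoter motif search was not run, since no promoter sequences were used here.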
